A study of Capra hircus with 9 samples.

Results

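The miR-23, miR-27 and miR-24 entries of a small RNA table were chosen by name: every entry whose number after "miR-" is 23, 27 or 24, whatever its letter, arm or ending. The rule found 15 of 2189 mature miRNA entries, 9 with goat names (prefix chi-) and 6 with other names (ending -x or -y). The libraries came from the submandibular gland, a salivary gland, of 9 healthy female Lubo goats, 3 aged 1 month, 3 aged 12 months and 3 aged 24 months, per the series' design text. Their number equals that of the libraries, and all were kept alike, with no treatment named. RNA came from gland tissue, so levels are those of a mixture of cells. Libraries are named by the numbers in their titles: 1, 2 and 3 for 1-month goats, 3, 4 and 5 for 12-month goats, and 2, 3 and 5 for 24-month goats.

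These miRNAs are cut from shared transcripts. In mammals miR-23b, miR-27b and a copy of miR-24 lie side by side in an intron, and miR-23a, miR-27a and another copy of miR-24 lie side by side at a second locus, so members of a cluster are made together but can differ in stability. miR-27 is known for holding back regulators of fat storage, miR-23 for acting on glutamine use and on blood vessel growth, and miR-24 for restraining genes of the cell cycle. Both clusters are known to be abundant in blood vessels, and the miR-23a cluster also in blood-forming cells. In the goat RefSeq annotation (ARS1.2), MIR23B, MIR27B and MIR24 follow each other within the gene C8H9orf3, and MIR23A and MIR27A follow each other within ZSWIM4. That annotation was used only for names and order, since no source used here gives the build of the deposited table.

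The mature sequences are shown first because they decide which entries can be told apart, with the seed (bases 2 to 8, the part that pairs with targets) in capitals and T standing for U as in the deposited table. The 5 abundant goat-named 3p entries were:
chi-miR-27b-3p: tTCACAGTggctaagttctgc
chi-miR-27a-3p: tTCACAGTggctaagttccg
chi-miR-23b-3p: aTCACATTgccagggattacc
chi-miR-23a: aTCACATTgccagggatttcc
chi-miR-24-3p: tGGCTCAGttcagcaggaac
The paralogs had the same seed and differed, over the bases listed for both, at a single base counted from 1 at the 5′ end: T19C between chi-miR-27b-3p and chi-miR-27a-3p, and A19T between chi-miR-23b-3p and chi-miR-23a. Reads that end before that base cannot be given to either paralog, and no source used here says how such reads were counted. Values for the a and b forms are therefore uncertain to that degree. miR-24 has no such letter in the table, so its reads were not assigned to either cluster.

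The 3p entries without a goat name are longer forms of these RNAs:
miR-27-y: tTCACAGTggctaagttccgct
miR-23-y: aTCACATTgccagggattaccact
miR-24-y: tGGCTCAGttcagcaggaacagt
miR-27-y began with the whole of chi-miR-27a-3p and ran on by 2 bases, miR-23-y with chi-miR-23b-3p and ran on by 3, and miR-24-y with chi-miR-24-3p and ran on by 3. They are counted under their own names but are no separate genes. The 15 members held 8 different seeds, and 0 of them shared a full sequence with another entry of the table.

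The 5p arms, the strands that are mostly discarded, are shown because one of them began at different bases under its 2 names:
chi-miR-27b-5p: aGAGCTTAgctgattggtgaac
chi-miR-27a-5p: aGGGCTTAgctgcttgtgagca
chi-miR-23b-5p: tGGGTTCCtggcatgctgattt
chi-miR-24-5p: gTGCCTACtgagctgatatc
miR-24-x: tGCCTACTgagctgatatcagt
miR-24-x started 1 base later than chi-miR-24-5p and ran on by 3, so the seeds of the pair were shifted against each other. chi-miR-27b-5p and chi-miR-27a-5p had different seeds, through A3G, unlike their 3p arms. The rare entry miR-27-x was a longer form of chi-miR-27b-5p by 3 bases, and miR-23-x had the seed of chi-miR-23b-5p in another sequence.

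Library totals ran from 8288492 to 13277448 counts, and levels below are CPM, counts scaled to library depth, with TMM factors that even out differences in library make-up, unless called unscaled. At 1 month, library 2 stood apart. There the 22 entries of leukocyte miRNAs (such as miR-142 and miR-150) took 12.7% of counts, while the 24 epithelial entries took 0.875% and the 18 gland entries (such as miR-148 and miR-7) 1.41%. By age, leukocyte entries took 3.73 to 12.7% in 1-month libraries, 0.604 to 0.712% in 12-month libraries and 0.477 to 0.617% in 24-month libraries. In the same order of ages, gland entries took 1.41 to 8.55%, 14.2 to 16.8% and 16.9 to 17.9%, and epithelial entries 0.875 to 5.82%, 10.3 to 11.9% and 10.7 to 11.8%. No entry of these lists was at 0 in all libraries, and 14 of 22 leukocyte and 12 of 18 gland entries were detected in every library. The 20 mesenchymal entries (such as miR-143 and miR-145) took 1.66% in 1-month library 2, against 10.7 and 13.6% in its mates, and 6.91 to 9.04% and 6.51 to 6.82% at the later ages. The 4 endothelial entries, of miR-126, took 0.441 to 1.45%, 0.781 to 0.939% and 0.693 to 0.748%. The 17 muscle entries (such as miR-1 and miR-133) took 0.0155 to 0.0611%, 0.0230 to 0.247% and 0.0226 to 0.0436%, with the highest share in 12-month library 4. The 10 red cell entries (such as miR-144 and miR-451) took 0.201 to 0.403%, 0.0735 to 0.360% and 0.101 to 0.116%. The part of these shifts in the age differences described below was not tested. In whole tissue, fewer cells of a type and less RNA per cell cannot be told apart.

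Together the 15 members took 4.93 ± 2.09% of all counts at 1 month, 7.64 ± 0.586% at 12 months and 7.44 ± 1.44% at 24 months (SD, n = 3 each). By library the shares were 5.94%, 2.52% and 6.32% in 1-month libraries, 8.31%, 7.25% and 7.35% in 12-month libraries, and 6.49%, 6.72% and 9.09% in 24-month libraries. The lowest was 1-month library 2, and 24-month libraries overlapped with those at 12 months but lay above those at 1 month. Without 1-month library 2 the mean at 1 month was 6.13%. The widest Wilson 95% interval of these shares reached 0.0188 percentage points to either side, and like every interval here it covers counting error only.

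chi-miR-27b-3p made up 58.6 ± 3.36% of the members' counts (SD over 9 libraries, range 54.8 to 64.6%) and ranked 5th of all entries by mean unscaled CPM. It stood at 39659 ± 14066 CPM over the 9 libraries. chi-miR-24-3p followed with 7237 ± 2334 CPM, chi-miR-23b-3p with 6017 ± 2520, chi-miR-23a with 4509 ± 1811 and chi-miR-27a-3p with 4140.1 ± 1106. chi-miR-27b-3p was above chi-miR-24-3p in 9 of 9 libraries, and chi-miR-24-3p above chi-miR-23b-3p in 7 of 9. chi-miR-23b-3p was above chi-miR-23a in 8 of 9, and chi-miR-23a above chi-miR-27a-3p in only 4 of 9, so the last pair had no fixed order. The longer forms came next, miR-23-y at 2375 ± 962, miR-27-y at 1748 ± 724 and miR-24-y at 1663 ± 589 CPM, and miR-27-y was above miR-24-y in only 5 of 9 libraries. The 7 entries of the 5p arms together took 0.161 ± 0.0307% of the members' counts.

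Of the 15 members, 13 passed the filter on low counts and were tested with edgeR's quasi-likelihood test among 937 entries. Between 1 and 12 months, 2 of the 13 rose and 0 fell at a Benjamini-Hochberg adjusted p under 0.05, while of all tested entries 19.2% were called, 5.98% higher and 13.2% lower. Both were longer 3p forms, miR-27-y and miR-24-y. Between 1 and 24 months, 4 of the 13 rose and 0 fell, while of all tested 26.3% were called, 8.75% higher and 17.5% lower. The 4 were miR-27-y, miR-24-y, chi-miR-23b-5p and chi-miR-27b-5p. None of the 5 abundant goat-named 3p entries passed in either comparison. The fitted log2 fold changes lay above 0 for 12 of 13 members at 12 against 1 month, and for 13 of 13 at 24 against 1 month. Their medians were 0.91 and 1.06, against −0.02 and −0.06 for all tested entries, of which 49.6% and 46.9% lay above 0. At an unadjusted p under 0.05, 7 and 8 of the 13 were higher, against 18% and 18.2% of all tested (39.9% and 42.6% in either direction). The comparisons at 12 and 24 months share the same 1-month libraries. The 13 members hold both arms and longer forms of the same RNAs, so they are not independent of each other.

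**Figure D1:**
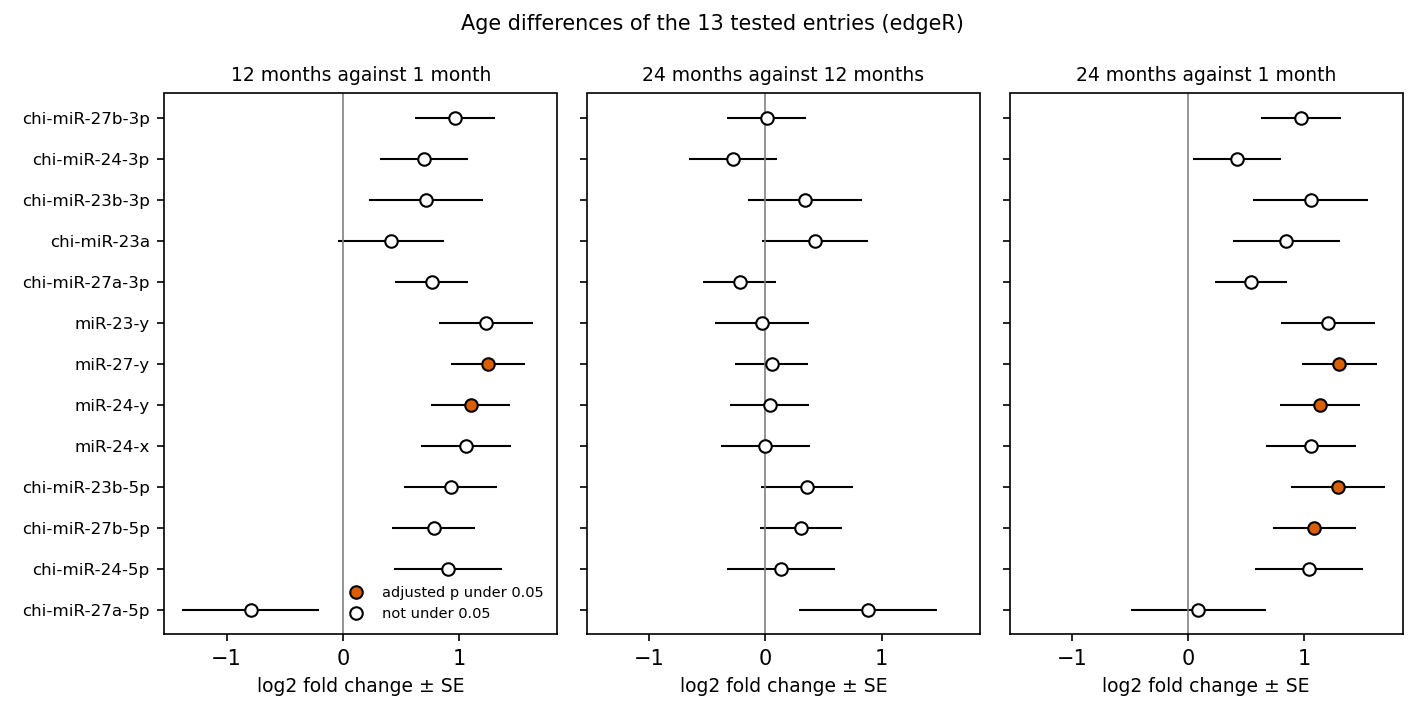
Log2 fold changes (x axis, older over younger age, ± SE from the edgeR F statistic) of the 13 tested entries (y axis), 1 panel per comparison. The most abundant entry is at the top, and filled points had an adjusted p under 0.05. At 12 against 1 month 12 of 13 points lie right of 0 with 2 filled, at 24 against 12 months none is filled, and at 24 against 1 month 13 of 13 lie right of 0 with 4 filled.

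miR-27 had the largest levels. chi-miR-27b-3p had 27881, 16024 and 28717 CPM in the 1-month libraries 1, 2 and 3, then 50952, 39274 and 51401 CPM in the 12-month libraries, and 41776, 38997 and 61912 CPM in the 24-month libraries. Every later library was above every 1-month library, and 1-month library 2 was the lowest of all. The mean was 24207 ± 7100 CPM at 1 month, 47209 ± 6875 at 12 months and 47561 ± 12505 at 24 months. The log2 fold change was 0.96 at 12 against 1 month (SE 0.34, edgeR adjusted p = 0.0635) and 0.97 at 24 against 1 month (SE 0.34, edgeR adjusted p = 0.0533), so neither passed. Without 1-month library 2 the values were 0.71 (adjusted p = 0.0639) and 0.73 (adjusted p = 0.0539). These were the lowest adjusted p of the 9 fits that each leave out 1 library, of which 0 passed. The highest were 0.503 and 0.373, or 0.187 and 0.190 with 24-month library 2 kept as the TMM reference. At 12 against 1 month the value was 0.48 without 12-month library 5 (0.90 with the reference kept). The 24 against 1 month difference passed in 4 of 28 alternatives, where some fits that did not pass are counted again, as described at the end. These were DESeq2 (adjusted p = 0.0324), limma voom (0.0464), upper quartile scaling (0.0492) and goat-named entries alone (0.0191). The 12 against 1 month difference passed in 2 of 28, limma voom (0.0479) and goat-named entries alone (0.0311). Neither passed with library size alone (edgeR adjusted p = 0.184 at 12 and 0.204 at 24 against 1 month). Nor did they without a filter (0.352 and 0.362) or with the replicate block (0.405 and 0.228).

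chi-miR-27a-3p, with the same seed, had 2801, 2414 and 3755 CPM at 1 month, 5988, 4817 and 4431 CPM at 12 months, and 3692, 4441 and 4922 CPM at 24 months. The 12-month libraries lay above all those at 1 month, while 24-month library 2 fell below 1-month library 3. The differences did not pass, at 0.76 for 12 against 1 month (SE 0.31, edgeR adjusted p = 0.094) and 0.54 for 24 against 1 month (SE 0.31, adjusted p = 0.211). The first was 0.30 without 12-month library 3 (0.63 with the TMM reference kept), and the second 0.28 without 24-month library 5 (0.45).

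miR-27-y, the longer form of chi-miR-27a-3p, had the smallest p of the members. It stood at 826, 927 and 942 CPM at 1 month, 1943, 2654 and 1802 CPM at 12 months, and 1640, 2423 and 2578 CPM at 24 months. The later ages did not overlap with 1 month, and here 1-month library 2 lay between its mates. Unscaled, library 2 was the lowest of the 1-month libraries, at 878 CPM against 976 and 1148. miR-27-y rose by 1.25 at 12 against 1 month (log2, SE 0.32, edgeR adjusted p = 0.0228) and by 1.30 at 24 against 1 month (SE 0.32, adjusted p = 0.0163). It was also the only member past the threshold for any difference between the 3 ages (adjusted p = 0.0253), where 20.5% of all entries were called. The 12-month call held without 1-month library 2 (adjusted p = 0.013) or 3 (0.0412), and was lost without 1-month library 1 (0.0555), 12-month library 3 (0.113), 4 (0.0999) or 5 (0.123), or 24-month library 2 (0.0742), 3 (0.0908) or 5 (0.0799). Leaving out 12-month library 3 or 5 or any 24-month library also moves the TMM reference, the library that the others are scaled to, to 1-month library 2. With 24-month library 2 kept as reference, the 12-month call of miR-27-y held without 24-month library 3 (0.0424) or 5 (0.0365) and was lost without 12-month library 3 (0.0608) or 5 (0.0608). The 24-month call was lost without 24-month library 3 (0.083) or 5 (0.0813), also with the reference kept (0.0647 and 0.0599), and held without each of the other 7 libraries. Library size alone (edgeR adjusted p = 0.0503), 1-month library 2 as TMM reference (0.0646) and identical sequences summed (0.0526) lost the 12-month call. The 24-month call held in these (0.0459, 0.0223 and 0.0226). No filter, the libraries of both ages only and the replicate block lost both. Upper quartile, DESeq2, limma voom and 10 CPM in 3 libraries kept both.

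**Figure D2:**
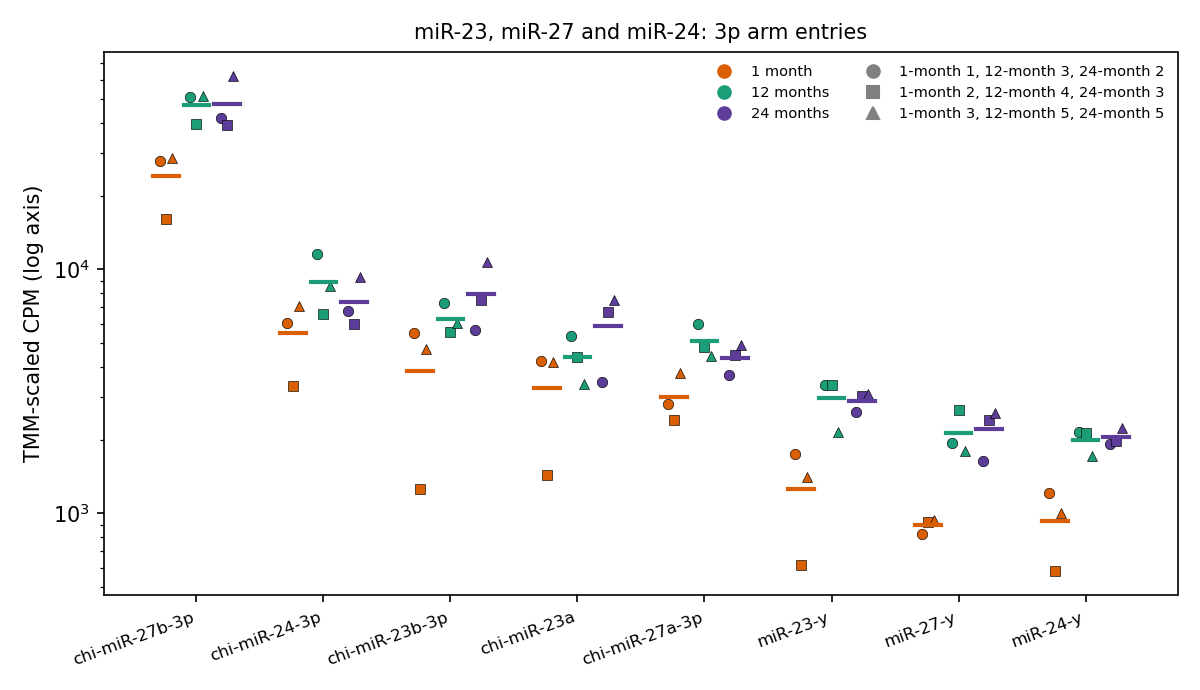
TMM-scaled CPM (log axis) of the 8 entries of the 3p arms by age; each point is 1 goat, marker shapes tell the libraries apart and bars are means of 3 goats. chi-miR-27b-3p lies between 16024 and 61912 CPM and the rest between 584 and 11521 CPM; the square at 1 month, library 2, is the lowest 1-month point of every entry other than miR-27-y.

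miR-23 varied between the 1-month libraries. chi-miR-23b-3p had 5484, 1262 and 4722 CPM in the 1-month libraries 1, 2 and 3, then 7291, 5536 and 6012 CPM at 12 months, and 5642, 7485 and 10715 CPM at 24 months. Library 2 held less than any other library by a wide margin, and libraries 1 and 3 lay just below the 12-month range. The log2 fold changes were 0.72 at 12 against 1 month (SE 0.49, edgeR adjusted p = 0.299) and 1.06 at 24 against 1 month (SE 0.49, adjusted p = 0.128). Without 1-month library 2 they were 0.28 and 0.62. The first was 0.24 without 12-month library 3 (0.59 with the TMM reference kept), and the second 0.57 without 24-month library 5 (0.78). chi-miR-23a had 4198, 1444 and 4193 CPM at 1 month, 5332, 4394 and 3382 CPM at 12 months, and 3470.4, 6683 and 7487 CPM at 24 months. Its ages overlapped in each comparison, and its values were 0.41 (SE 0.46, adjusted p = 0.515) and 0.84 (SE 0.46, adjusted p = 0.186). Without 1-month library 2 the first was 0.03, and without 12-month library 3 it was −0.11 (0.24 with the TMM reference kept). The second was 0.46 without 1-month library 2 and 0.43 without 24-month library 5 (0.63).

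miR-23-y, the longer form of chi-miR-23b-3p, had 1760.3, 613 and 1411 CPM at 1 month, 3365, 3367 and 2153 CPM at 12 months, and 2594, 3029 and 3086 CPM at 24 months. Its later ages did not overlap with 1 month, but it narrowly missed the threshold at 1.23 for 12 against 1 month (SE 0.41, edgeR adjusted p = 0.0555) and 1.20 for 24 against 1 month (SE 0.41, adjusted p = 0.0501). Of the 9 fits that each leave out 1 library, 2 passed in each comparison. These were the fits without 1-month library 1 (adjusted p = 0.044 and 0.0393) or 2 (0.0339 and 0.0332). In the other fits the adjusted p rose to 0.311 and 0.190, or to 0.143 and 0.131 with the TMM reference kept. Over all 27 alternatives that tested miR-23-y, 7 passed in each comparison. These hold the fits without 1-month library 1 and 2 again, since keeping the TMM reference changes nothing there.

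chi-miR-24-3p had 6009, 3320 and 7095 CPM at 1 month, 11521, 6584 and 8577 CPM at 12 months, and 6772, 5951 and 9305 CPM at 24 months. The ages overlapped, with 12-month library 4 below 1-month library 3. The log2 fold changes were 0.70 (SE 0.38, edgeR adjusted p = 0.191) and 0.42 (SE 0.38, adjusted p = 0.423) against 1 month. Single libraries moved these values: they were 0.41 and 0.14 without 1-month library 2, the first was 0.15 without 12-month library 3 (0.47 with the TMM reference kept), and the second 0.04 without 24-month library 5 (0.22). Its longer form miR-24-y did not overlap with 1 month at the later ages, at 1215.5, 584 and 1004 CPM at 1 month, 2157, 2135 and 1715.5 CPM at 12 months, and 1934, 1978 and 2243 CPM at 24 months. miR-24-y rose by 1.10 at 12 against 1 month (SE 0.34, edgeR adjusted p = 0.0446) and by 1.13 at 24 against 1 month (SE 0.34, adjusted p = 0.0342). Both calls held without 1-month library 1 (0.0431 and 0.0338) or 2 (0.0212 and 0.0167). At 12 against 1 month the call was lost without 1-month library 3 (0.0775), 12-month library 3 (0.288), 4 (0.124) or 5 (0.264), or 24-month library 2 (0.195), 3 (0.191) or 5 (0.199). At 24 against 1 month the call was lost without the same libraries, at 0.0593 without 1-month library 3, at 0.109, 0.0554 and 0.109 without 12-month library 3, 4 and 5, and at 0.134, 0.134 and 0.164 without 24-month library 2, 3 and 5. With the TMM reference kept, the miR-24-y calls were lost as well, but by less. At 12 against 1 month the adjusted p was then 0.114 and 0.0976 without 12-month library 3 and 5, and 0.0739 and 0.0666 without 24-month library 3 and 5. At 24 against 1 month it was 0.0568 and 0.056 without 12-month library 3 and 5, and 0.0933 and 0.0925 without 24-month library 3 and 5. Both miR-24-y calls were also lost with library size alone (edgeR adjusted p = 0.130 and 0.126) and with identical sequences summed (0.146 and 0.0721). The same held for 1-month library 2 as TMM reference (0.145 and 0.0608) and the libraries of both ages only (0.201 and 0.122). No filter and the replicate block lost both too. Upper quartile, DESeq2 and limma voom kept both, and 10 CPM in 3 libraries kept that at 24 months.

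The 5p arms lay far below the 3p arms. Per library, chi-miR-27b-5p had 0.0331 to 0.0625 counts per 100 counts of chi-miR-27b-3p, chi-miR-27a-5p 0.0666 to 0.313 per 100 of chi-miR-27a-3p, chi-miR-24-5p 0.11 to 0.294 per 100 of chi-miR-24-3p, and chi-miR-23b-5p 0.191 to 0.617 per 100 of chi-miR-23b-3p. chi-miR-27b-5p stood at 9.90, 10.02 and 10.09 CPM at 1 month, 16.9, 16.96 and 17.8 CPM at 12 months, and 17.6, 17.5 and 28.7 CPM at 24 months. Unlike its 3p partner it was not low in 1-month library 2 on this scale. Unscaled, chi-miR-27b-5p had 11.7, 9.49 and 12.3 CPM in the 1-month libraries, with library 2 the lowest. It rose by 1.09 at 24 against 1 month (SE 0.36, edgeR adjusted p = 0.0461) and had a value of 0.78 at 12 against 1 month (SE 0.36, adjusted p = 0.127).

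chi-miR-23b-5p had 10.5, 7.79 and 12.0 CPM at 1 month, 17.9, 19.8 and 19.9 CPM at 12 months, and 15.03, 33.3 and 25.7 CPM at 24 months. It rose by 1.29 at 24 against 1 month (SE 0.40, edgeR adjusted p = 0.0382) and had a value of 0.93 at 12 against 1 month (SE 0.40, adjusted p = 0.106). Of the 9 fits that each leave out 1 library, only that without 1-month library 2 kept the 24-month calls of chi-miR-23b-5p (adjusted p = 0.0492) and chi-miR-27b-5p (0.0363). In the other 8 fits the adjusted p of chi-miR-23b-5p ran from 0.0542, without 1-month library 3, to 0.213, without 24-month library 3. For chi-miR-27b-5p it ran from 0.0763, without 12-month library 4, to 0.261, without 24-month library 5. With the TMM reference kept, the highest were 0.138 and 0.146, without the same libraries. Both 24-month calls were lost with library size alone (edgeR adjusted p = 0.104 and 0.113) and identical sequences summed (0.0652 and 0.0792). The same held for 1-month library 2 as TMM reference (0.0609 and 0.0733), no filter, the libraries of both ages only and the replicate block. Upper quartile, DESeq2, limma voom and goat-named entries alone kept both, and 10 CPM in 3 libraries kept that of chi-miR-23b-5p.

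miR-24-x, the 5p form that starts 1 base later, was more abundant than chi-miR-24-5p in all 9 libraries, with 4637 counts in all against 1273. miR-24-x stood at 33.2, 21.7 and 35.2 CPM at 1 month, 67.1, 70.8 and 49.9 CPM at 12 months, and 45.8, 86.2 and 55.8 CPM at 24 months. Its later ages did not overlap with 1 month, yet it did not pass, at 1.06 for 12 against 1 month (SE 0.39, edgeR adjusted p = 0.0695) and 1.06 for 24 against 1 month (SE 0.39, adjusted p = 0.0597). chi-miR-24-5p had 10.6, 3.66 and 11.3 CPM at 1 month, 18.7, 11.0 and 18.2 CPM at 12 months, and 17.1, 17.5 and 18.0 CPM at 24 months, and did not pass either (0.91 with adjusted p = 0.172, and 1.04 with adjusted p = 0.114). Its 12-month library 4 lay within the 1-month range.

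chi-miR-27a-5p was the only tested member with a negative value at 12 against 1 month. It had 4.83, 7.56 and 6.85 CPM at 1 month, 3.99, 3.52 and 3.59 CPM at 12 months, and 2.70, 4.09 and 13.7 CPM at 24 months. The 12-month libraries lay below those at 1 month, and 24-month library 5 stood above all others. The log2 fold change was −0.79 at 12 against 1 month (SE 0.59, edgeR adjusted p = 0.333) and 0.09 at 24 against 1 month (SE 0.58, adjusted p = 0.941), and the value at 24 against 1 month was −1.06 without 24-month library 5 (adjusted p = 0.164). Its counts were small, 28 to 119 per library. The remaining members did not pass the filter on low counts: miR-23-x had 2 to 12 counts per library and miR-27-x 0 to 10. The 0 counts of miR-27-x were in 1-month library 2 and allow up to 0.226 unscaled CPM there.

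**Figure D3:**
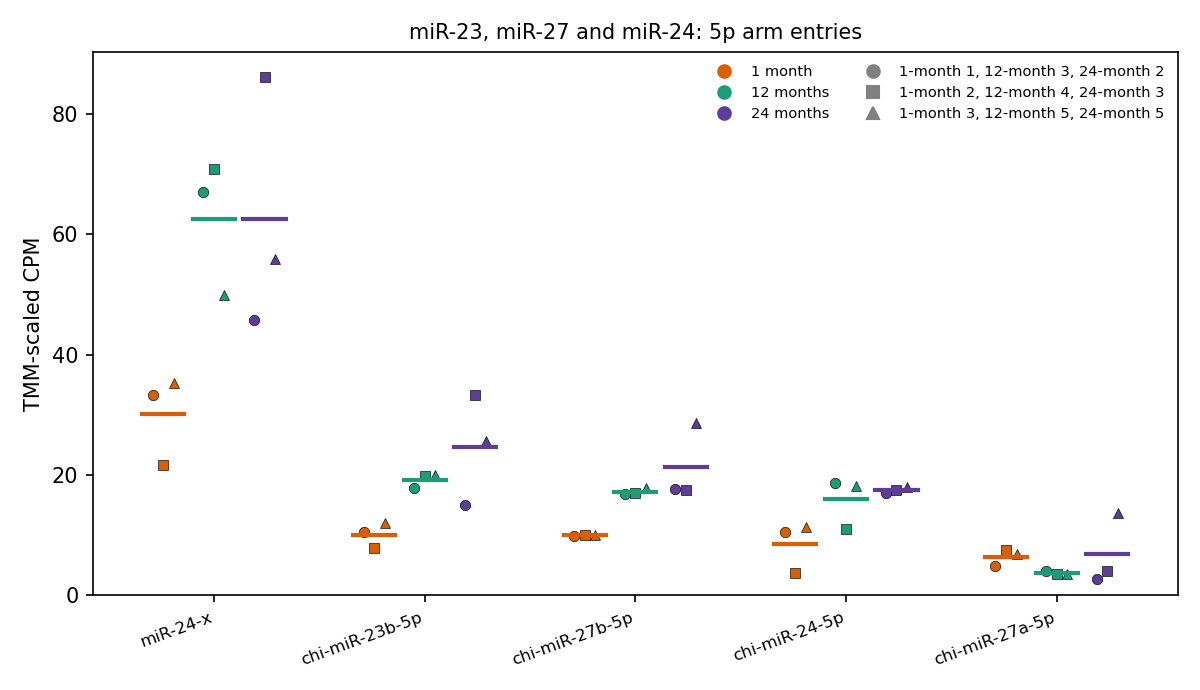
TMM-scaled CPM of the 5 tested entries of the 5p arms by age; each point is 1 goat and bars are means of 3 goats. miR-24-x is the highest in every library, chi-miR-27b-5p has its 1-month points within 9.90 to 10.09 CPM, and the 24-month triangle of chi-miR-27a-5p, library 5, lies at 13.7 CPM.

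Between 12 and 24 months, 0 of 13 members were called by edgeR, as were 0% of all 937 entries, and DESeq2 and limma voom also called 0 of both. At an unadjusted edgeR p under 0.05 there were 0 members, against 4.27% of all tested (2.35% higher). Fitted log2 fold changes ran from −0.28 for chi-miR-24-3p (SE 0.38) to 0.88 for chi-miR-27a-5p (SE 0.59), with a median of 0.05 against −0.03 for all entries. For chi-miR-27b-3p the value was 0.01 (SE 0.34), and missing the threshold does not show that levels were the same. In CPM, 0 of 13 tested members had ages that did not overlap, against 9.82% of all tested entries (6.08% higher). Against 1 month, 9 of 13 were higher without overlap at 12 months (26.3% of all tested, or 48.5% in either direction) and 9 of 13 at 24 months (21.3% of all tested, or 47.2%). Counting chi-miR-27a-5p, which was lower, 10 of 13 did not overlap between 12 and 1 month.

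Ratios within a library do not depend on how libraries are scaled, and members cut from 1 transcript can be compared in this way. The ratio of chi-miR-27b-3p to chi-miR-23b-3p was 5.08, 12.7 and 6.08 in the 1-month libraries, 6.99, 7.09 and 8.55 in the 12-month libraries, and 7.40, 5.21 and 5.78 in the 24-month libraries. 1-month library 2 was again apart, and the ages overlapped. The ratio of chi-miR-27b-3p to its paralog chi-miR-27a-3p was 8.08 ± 1.70 at 1 month, 9.42 ± 1.90 at 12 months and 10.9 ± 1.93 at 24 months (SD, n = 3 each). That of chi-miR-23b-3p to chi-miR-23a was 1.10 ± 0.217, 1.47 ± 0.273 and 1.39 ± 0.255, and lay below 1 only in 1-month library 2 (0.874). That of chi-miR-24-3p to chi-miR-23b-3p was 1.74 ± 0.795, 1.40 ± 0.197 and 0.955 ± 0.216.

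Of 11 ratios, 10 had at least 10 counts in each library for both entries and gave 30 tests between ages (exact two-sided permutation test on log2 ratios, 3 against 3, where 0.1 is the smallest p). None can pass in this design. The 3 tests without overlap between ages each had an exact p of 0.1 and an adjusted p of 0.545. The ratio of chi-miR-27a-3p to chi-miR-23a was 1.06, 0.665 and 0.657 at 24 months, against 1.12, 1.10 and 1.31 at 12 months, a log2 difference of −0.60. Those at 24 months all lay below those at 12 months, narrowly for 24-month library 2. chi-miR-24-5p per 100 counts of chi-miR-24-3p was 0.252, 0.294 and 0.193 at 24 months, against 0.176, 0.11 and 0.159 at 1 month, a log2 difference of 0.74. chi-miR-27a-5p per 100 counts of chi-miR-27a-3p was 0.0666, 0.0731 and 0.0811 at 12 months, against 0.172, 0.313 and 0.182 at 1 month, a log2 difference of −1.55. At 24 months that share was 0.0731, 0.0922 and 0.278, with library 5 within the 1-month range.

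miR-27-y and miR-24-y, both longer forms, were called in both comparisons with 1 month. Each longer form was therefore set against the shorter form it extends, a comparison chosen after the values were seen. The ratio of miR-27-y to chi-miR-27a-3p was 0.295, 0.384 and 0.251 in 1-month libraries, 0.325, 0.551 and 0.407 in 12-month libraries, and 0.444, 0.546 and 0.524 in 24-month libraries. The ratio of miR-24-y to chi-miR-24-3p was 0.202, 0.176 and 0.141 in 1-month libraries, 0.187, 0.324 and 0.200 in 12-month libraries, and 0.286, 0.332 and 0.241 in 24-month libraries. Both were higher at 24 months than at 1 month without overlap, by 0.72 and 0.73 on the log2 scale (exact two-sided permutation p = 0.1 each, the smallest possible, adjusted p = 0.45 over 9 tests). The ratio of miR-23-y to chi-miR-23b-3p was 0.368 ± 0.102, 0.476 ± 0.126 and 0.384 ± 0.0877, and its ages overlapped.

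The table held 73 pairs in all of a tested longer form and a goat-named entry that it extends, with at least 10 counts of each in every library. Of these, 20.5% were higher without overlap at 24 against 1 month, 12.3% at 12 against 1 month and 2.74% at 24 against 12 months. The median difference of the 73 pairs was 0.19, 0.03 and 0.16 in these comparisons. The longer forms as a group were high in 12-month library 4 and 24-month library 3, at 0.24 and 0.29 above their own mean (median log2 over the 73 pairs), and low in 12-month library 5 at −0.30. 12-month library 4 and 24-month library 3 also had the highest ratio of their age for miR-27-y and miR-24-y. In 12-month library 5 these ratios were not the lowest of their age, at 0.407 and 0.200 against 0.325 and 0.187 in 12-month library 3. The part of this library-wide shift in the values of these members was not tested.

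**Figure D4:**
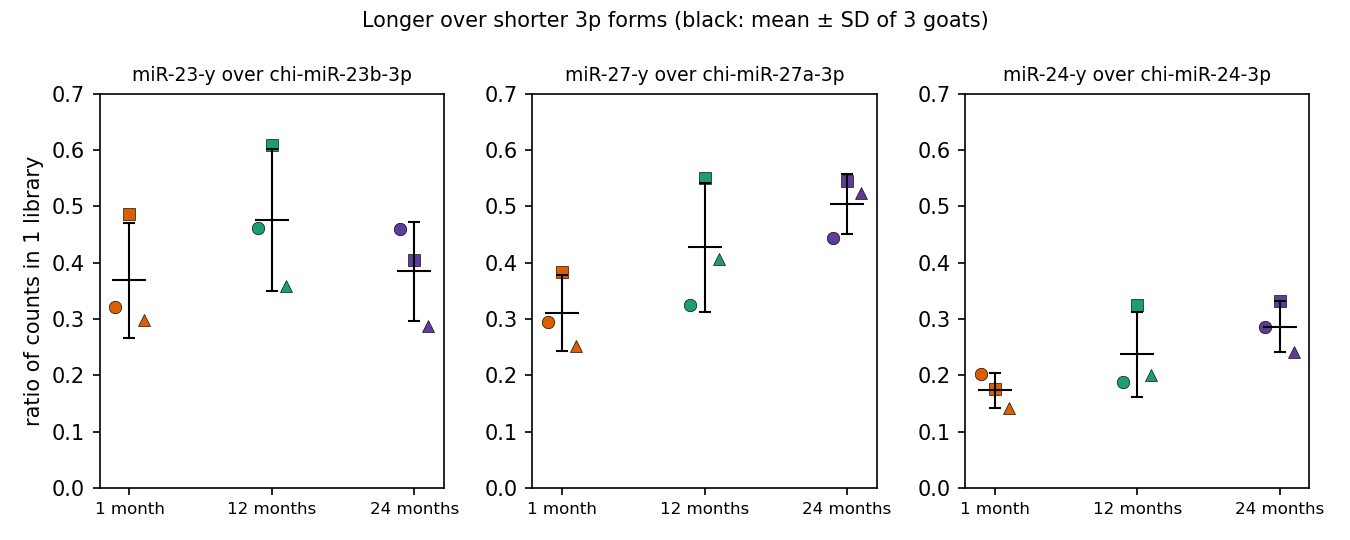
Ratio of counts of each longer 3p form to the shorter form it extends (y axis) at each age (x axis); points are goats and black bars mean ± SD of 3 goats. For miR-27-y and miR-24-y all 24-month points lie above all 1-month points, while those for miR-23-y overlap.

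Entries under other numbers carried sequences of this group, and lie outside the counts above:
miR-10174-y: aTCACATTgccagggattaccat
miR-9985-x: gTCACAGTggctaagttatg
miR-10174-x: gGGTTCCTggcatgctgatttaa
miR-10174-y began with the whole of chi-miR-23b-3p and ran on by 2 bases, and miR-10174-x began at base 2 of chi-miR-23b-5p and ran on by 2. miR-9985-x had the seed of miR-27 and differed from chi-miR-27b-3p by T1G and C18A over 20 bases. miR-10174-y had 52.5, 15.6 and 42.2 CPM at 1 month, 71.7, 73.5 and 60.9 CPM at 12 months, and 67.1, 93.3 and 125.8 CPM at 24 months. Like chi-miR-23b-3p it was lowest in 1-month library 2 and highest in 24-month library 5, and it did not pass at 24 against 1 month (1.38, SE 0.47, edgeR adjusted p = 0.0506). miR-9985-x had 1.64 to 12.4 CPM per library and did not pass either (1.58, SE 0.56, adjusted p = 0.0528), and miR-10174-x had 13 counts in all.

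Patterns over the 9 libraries were compared for the 5 abundant goat-named 3p members. Each of them other than chi-miR-23a had entries outside the group nearer to it than any other of the 5. The longer forms and the 5p arms of the group were not compared. Likeness was measured as the root mean square difference of log2 CPM after centring each entry on its own mean, among 222 named entries of at least 100 CPM outside the group. This is a description only, since all entries were measured in the same 9 libraries and share their depths and age groups. chi-miR-27b-3p was nearest to chi-miR-151-3p (0.19), miR-151-y (0.20) and chi-miR-151-5p (0.24), arms of the miR-151 hairpin, with chi-miR-24-3p at 0.25 and its cluster partner chi-miR-23b-3p at 0.39. chi-miR-23b-3p was nearest to miR-152-y (0.17), miR-139-x (0.26) and chi-miR-183 (0.26), with chi-miR-23a at 0.29. chi-miR-23a was nearer to chi-miR-23b-3p (0.29) than to its cluster partner chi-miR-27a-3p (0.45), with miR-99-x also at 0.29, miR-151-y at 0.31 and chi-miR-1468-5p at 0.31. Outside the group, chi-miR-24-3p was nearest to chi-miR-151-3p (0.17), chi-miR-99a-5p (0.23) and miR-99-x (0.25). Both miR-27 entries lay about as near as the last of these, chi-miR-27a-3p at 0.246 and chi-miR-27b-3p at 0.254 against 0.251, while chi-miR-23a was at 0.45 and chi-miR-23b-3p at 0.48. chi-miR-27a-3p was nearest to miR-126-y (0.18), miR-151-x (0.20) and miR-125-x (0.20). miR-126-y, at 712 CPM on average, is 1 of the 4 endothelial entries, which together took 0.851% of counts on average. Their mean summed share, unscaled, was 0.968 ± 0.507% for 1-month, 0.862 ± 0.0792% for 12-month and 0.724 ± 0.0281% for 24-month libraries (SD, n = 3 each). The 1-month libraries, at 0.441 to 1.45%, spanned those of both later ages. chi-miR-27a-3p had its lowest mean scaled CPM at 1 month. The part of endothelial cells in this likeness was not tested.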

How the data were processed

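Small RNA libraries from 9 goats were analysed. The authors deposited 1 table of raw counts per mature miRNA entry, whole numbers that sum to a different total in each library. FastQC and Bowtie are named without roles, per the submitters' processing notes. The database release, the genome build and the rule for reads that match several entries appear in no source used here. Groups came from the age label. Entries were filtered with edgeR (minimum count 10, minimum total 15), which left 937 of 2189, and fitted over all 9 libraries with edgeR 4.0.16 in R 4.3.3 (TMM, robust quasi-likelihood test with 6 residual degrees of freedom). The Benjamini-Hochberg adjustment ran over all 937 entries of a comparison. SDs are between goats. SEs were derived from the edgeR test, as the absolute log2 fold change over the square root of its F statistic. The fit was tested on simulated data.

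Alternatives were library size alone, upper quartile, DESeq2 1.42.0, limma voom 3.58.1, other filters, the libraries of both ages only, a replicate block, each library left out, identical sequences summed and goat-named entries only. Members, lists and tests were chosen with earlier results of these data known. Members of at least 10 CPM on average are given per library, and chi-miR-27a-5p, miR-10174-y, miR-9985-x and miR-10174-x were described after their values were seen.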

Additional observations from a re-analysis of the deposited data

How the results depend on the processing

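No alternative called a member lower, and those that called none show no direction. The median log2 fold change of the members minus that of all entries ran from 0.64 to 1.18 at 12 against 1 month and from 0.79 to 1.47 at 24 against 1 month over 28 alternatives. Calls are given below for 12 against 1 month, 24 against 1 month and any difference, each with the share of all entries called in brackets; the main counts were 2, 4 and 1 (19.2, 26.3 and 20.5%). Library size alone put the median of all entries at −0.20 and −0.36 and called 0, 1 and 0 (19.3, 25.5 and 22.1%). Upper quartile called 3, 7 and 1 (20.9, 30.4 and 19.7%), DESeq2 4, 7 and 4 (30.4, 38.2 and 31.9%), and limma voom 4, 6 and 2 (24.2, 27.4 and 19.1%). Without a filter 0, 0 and 0 of 15 were called (12, 13.2 and 13.8%), and with 10 CPM in 3 libraries 1, 3 and 1 of 12 (26.8, 30.9 and 25.8%). The libraries of both ages only gave 0 and 0 (17.1 and 20.5%). Goat-named entries alone gave 1, 5 and 3 of 9 (27.7, 34.9 and 30.4%), and identical sequences summed 0, 1 and 1 (20.5, 26 and 22.2%). Without 1 library each, 0 to 3 (8.3 to 22.5%), 0 to 5 (11.5 to 26.4%) and 0 to 2 (16.1 to 22.3%) were called, and 0 to 0 at 24 against 12 months. With 1-month library 2 as TMM reference over all 9 libraries, 0, 1 and 1 were called (21, 25.9 and 23.1%). This alternative was added after seeing the data, as was keeping 24-month library 2 as reference on leaving out others. Without 1-month library 1, 2 or 3 or 12-month library 4 the reference did not move, so keeping it repeats the same fits. Counts of alternatives hold these fits again.

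The replicate block called 0, 0 and 0 members, and 4, 71 and 13 of all entries. Nothing in the labels says that shared numbers mark shared litters or batches, and same-numbered libraries of different ages deviated from their age means with correlations of −0.21 to 0.18.

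Against 1 month, single members changed sign as follows. chi-miR-27a-5p at 24 against 1 month, main value 0.09, was −0.19 with library size alone, −0.25 with limma voom, −0.15 without a filter, −0.83 with the replicate block, −0.012 with the other TMM reference, −0.0062 with identical sequences summed, and −1.06 to 0.33 without 1 library each (with the TMM reference kept, −0.91 without 24-month library 5 and −0.068 without 1-month library 1). chi-miR-23a at 12 against 1 month ran from −0.11 to 0.64 without 1 library each, and the miR-23-y over chi-miR-23b-3p ratio at 24 against 1 month from −0.076 to 0.28. At 24 against 12 months the members' median, 0.05, was itself −0.03 with library size alone and −0.03 without 24-month library 5 with the TMM reference kept. The causes were not tested. The share of counts was 8.44% of goat-named counts at 12 months, and the means without 1 library ran from 4.23 to 6.13% for 1-month, 7.30 to 7.83% for 12-month and 6.61 to 7.91% for 24-month libraries. The ratio tests cannot pass at this sample size under any setting.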
